A study of Homo sapiens with 4 samples.

Results

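The genes described here encode the subunits of the proteasome and the proteins that assemble, activate or inhibit it. They are all genes whose symbol is PSMA, PSMB, PSMC, PSMD, PSME, PSMF or PSMG followed by a number, without pseudogenes and without the inducible catalytic subunits PSMB8 and PSMB9, and only probe sets annotated with 1 gene symbol were used. This gave 43 of 18417 measured genes, namely 8 subunits of the 20S alpha ring, 9 of the beta ring, 5 ATPases, 3 other base subunits and 6 lid subunits of the 19S regulator, 3 chaperones of 19S assembly, 4 activators, 1 inhibitor and 4 chaperones of 20S assembly. PSMC5, PSMD7 and PSMD13 were not analysed here. The study asked how loss of Efp, an estrogen-responsive RING finger protein encoded by TRIM25, alters endometrial cancer cells. RNA came from Ishikawa cells treated with siEfp, Ishikawa cells treated with siControl, HEC-1A cells treated with siEfp and HEC-1A cells treated with siControl, with 1 Affymetrix array for each. Ishikawa cells are ERα-positive and derive from an endometrial adenocarcinoma, and the siEfp cells received the duplex siEfp #A for 48 h according to the methods of the study. HEC-1A is an endometrial cancer line often described as ERα-negative, and for its arrays neither duplex nor time is given in the sources used here. Both lines were grown in DMEM with fetal bovine serum.

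The proteasome degrades proteins that carry ubiquitin chains. Its barrel, the 20S core, has outer alpha rings that gate the entry and inner beta rings that hold the proteolytic sites, and the 19S regulator on its end binds ubiquitin, removes it, and unfolds the substrate with a ring of ATPases. Efp is a ubiquitin E3 ligase. Some of the proteins it marks are degraded by this particle, while other ubiquitin chains it builds serve in signalling. When the particle is inhibited the transcription factor NFE2L1 raises the genes of its subunits together.

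Values are log2 signals, and a difference is the siEfp signal minus the siControl signal of the same line. With 1 array per condition such a difference has no replicate check and no test, and it is given as a measured value. TRIM25 had log2 signals of 7.96 with siEfp against 9.42 with siControl in Ishikawa cells, and of 7.93 with siEfp against 9.50 with siControl in HEC-1A cells. These are differences of -1.46 and -1.57, lower in both siEfp arrays as their labels say. The epithelial keratins KRT8 and KRT18 had log2 signals of 10.85 to 12.44 on the 4 arrays, while PTPRC of leukocytes, PECAM1 of endothelium and DCN and LUM of fibroblasts lay between 2.79 and 3.32, near the low end. Other markers of these cell types were higher on the 4 arrays. CD68 had log2 signals of 5.58 to 7.26 and COL1A1 of 6.37 to 7.40. VWF had 4.17 to 5.21 and CDH5 had 4.29 to 4.45. CD3E, at 3.79 to 4.20, was still near the low end. The part of these markers in the results was not tested. The keratins KRT8 and KRT19 were lower in HEC-1A cells, with HEC-1A minus Ishikawa differences, averaged over treatments, of -1.23 and -1.25. KRT18 was at 0.01. The adhesion genes CDH1 and EPCAM separated the lines further. CDH1 had log2 signals of 3.74 and 4.07 on the siEfp and siControl arrays of HEC-1A and 9.62 and 10.22 on those of Ishikawa, so this epithelial marker was near the low end in HEC-1A cells. EPCAM had 7.05 and 7.26 on the HEC-1A arrays and 11.24 on both Ishikawa arrays.

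Most proteasome genes gave bright probe sets. Averaged over the 4 arrays, 39 of the 43 were no dimmer than the middle gene of the array. The other 4 were PSMA8, the germ cell counterpart of PSMA7, PSMB11, the thymic catalytic subunit, PSMB10 and PSMG4. PSMA8 had log2 signals of 2.65 with siEfp and 2.68 with siControl in Ishikawa cells, and 2.59 with siEfp and 2.69 with siControl in HEC-1A cells, which is the low end of the arrays. PSMB11 lay between 3.36 and 3.47 on the 4 arrays. Differences of such dim probe sets are compressed by the normalization.

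**Figure D1:**
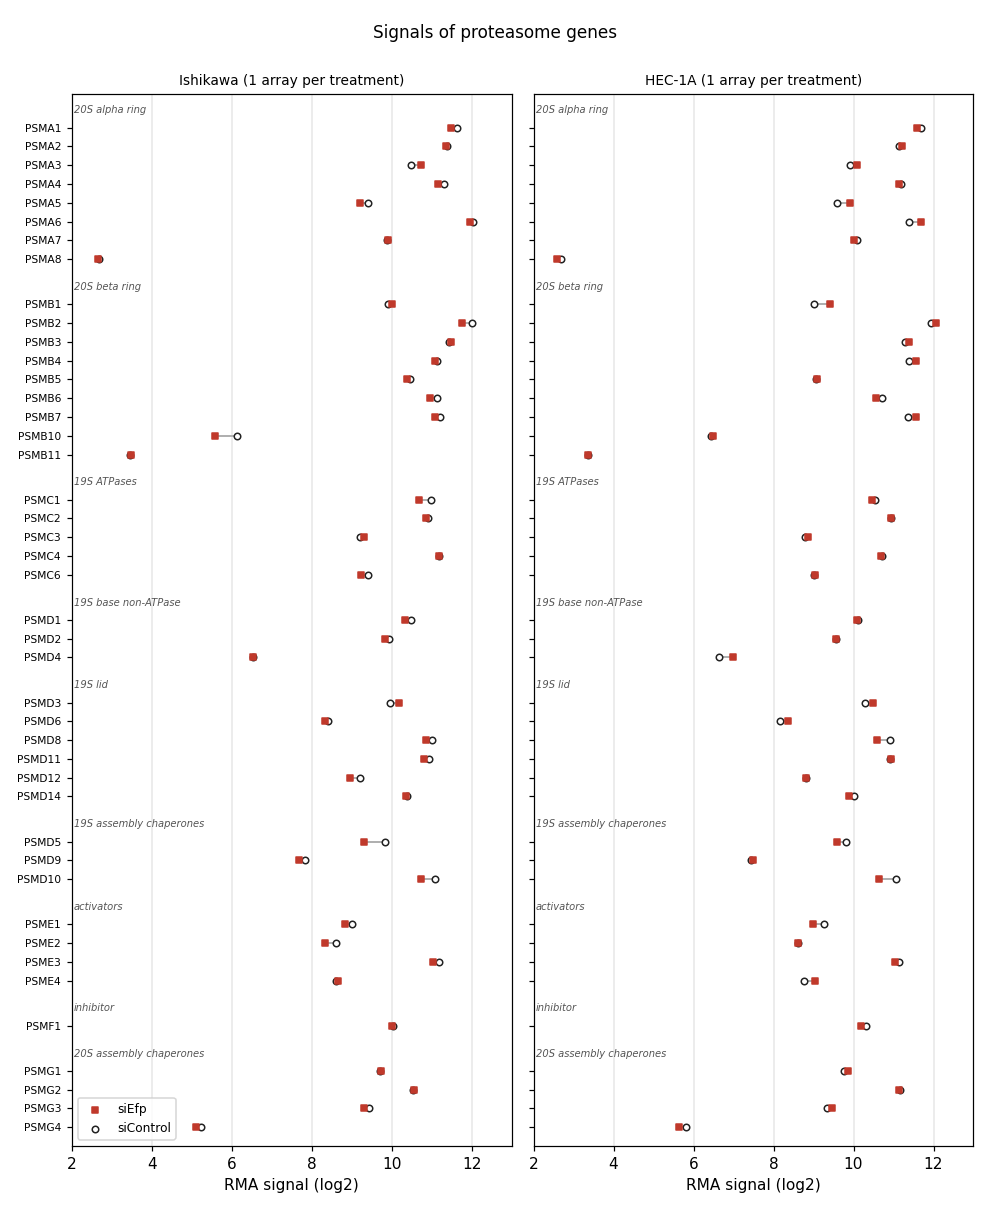
Log2 signal of each of the 43 proteasome genes with siEfp and siControl, 1 row per gene, grouped by role, in Ishikawa (left) and HEC-1A (right), with 1 symbol per array. The symbols of a line nearly coincide for most genes, PSMA8 and PSMB11 stand at the low end, and PSMB10 has a gap of 0.55 in Ishikawa cells alone.

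In Ishikawa cells most proteasome genes had slightly lower signals with siEfp, and few of these differences were large. The median difference over the 43 genes was -0.12 (SD over genes 0.16), with a range of -0.55 to 0.26, against a median of 0.01 over all genes and of -0.03 over the brighter genes, those no dimmer than the middle gene. The difference was below 0 for 31 of 43 genes (72.1%), against 47.6% of all genes and 54.4% of the brighter genes. Larger differences were counted from 0.32 on the log2 scale. By this measure 3 proteasome genes (6.98%) were lower, against 11.7% of all genes. They were PSMB10, PSMD5 and PSMD10. No gene of the 43 was higher by at least 0.32, against 9.81% of all genes, and none differed 2-fold either way, against 0.939%. The low median thus came from many small differences, since the share of proteasome genes past 0.32 was below that of all genes. All 5 epithelial markers also had lower signals with siEfp in both lines, against 26.7% of all genes. Their median differences were -0.20 in Ishikawa cells and -0.21 in HEC-1A cells. They ranged from -0.60 to -0.0027 in Ishikawa cells and from -0.55 to -0.04 in HEC-1A cells, so some were close to no difference. The part of these markers in the values of the proteasome genes was not tested. In RNA from whole cultures, fewer cells that express a gene and less RNA per cell cannot be told apart.

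In HEC-1A cells the proteasome genes were centred on no difference. The median was 0.01, equal at this precision to the 0.01 of all genes, with a range of -0.42 to 0.40 and an SD over genes of 0.18. The difference was below 0 for 21 genes (48.8%), against 47.7% of all genes. By at least 0.32, 2 genes were lower, PSMD10 and PSMD8, against 8.70% of all genes, and 3 were higher, PSMB1, PSMD4 and PSMA5, against 8.42%. None reached 2-fold, against 0.375% of all genes. The shares of proteasome genes past 0.32, 4.65% lower and 6.98% higher, were below those of all genes in both directions.

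**Figure D2:**
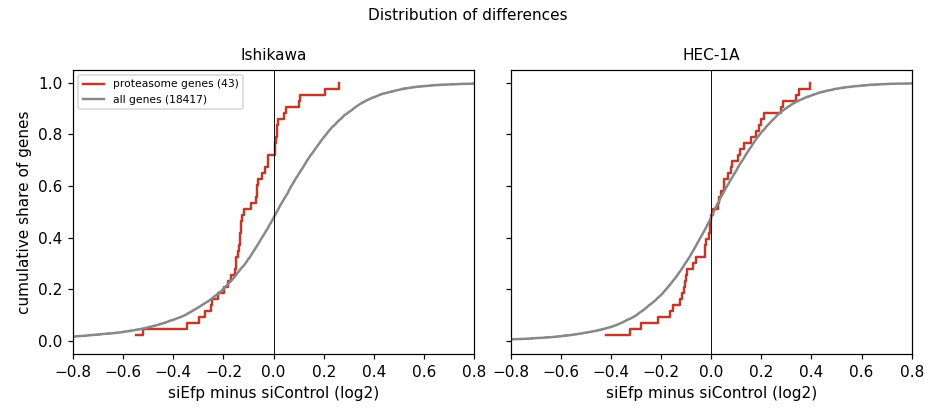
Cumulative share of genes against siEfp minus siControl on the log2 scale, for the 43 proteasome genes and for all 18417 genes, in Ishikawa (left) and HEC-1A (right). In Ishikawa cells the curve of the proteasome genes lies left of that of all genes through the middle, with medians of -0.12 and 0.01, and in HEC-1A cells the curves cross near 0.

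The alpha ring of the 20S core had differences of mixed sign, of which 1, that of PSMA5 in HEC-1A cells, reached 0.32. In Ishikawa cells 6 of its 8 genes were lower with siEfp, at a median of -0.05, and in HEC-1A cells 4 of 8, at a median of 0.01. PSMA3 was the gene furthest up in Ishikawa cells, with log2 signals of 10.74 with siEfp and 10.48 with siControl, and it was also higher with siEfp in HEC-1A cells, at 10.10 against 9.92 with siControl. PSMA5 had differences of opposite sign, with 9.20 with siEfp against 9.42 with siControl in Ishikawa cells (-0.22), and 9.92 with siEfp against 9.58 with siControl in HEC-1A cells (0.34). The remaining alpha subunits lay between -0.15 and 0.08 in both lines, except PSMA6 at 0.28 in HEC-1A cells.

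The beta ring holds the proteolytic sites. PSMB5 carries the chymotrypsin-like activity, PSMB6 the caspase-like and PSMB7 the trypsin-like activity. PSMB5 had log2 signals of 10.38 with siEfp and 10.45 with siControl in Ishikawa cells, and 9.09 with siEfp and 9.07 with siControl in HEC-1A cells. PSMB6 had 10.96 with siEfp and 11.13 with siControl in Ishikawa cells, and 10.56 with siEfp and 10.71 with siControl in HEC-1A cells. PSMB7 had 11.08 with siEfp and 11.22 with siControl in Ishikawa cells, and 11.55 with siEfp and 11.35 with siControl in HEC-1A cells. The constitutive catalytic subunits were therefore all within 0.20 of their siControl signal in each line, and of them only PSMB6 was lower with siEfp in both. The structural subunit PSMB1 was the gene furthest up in HEC-1A cells, with 9.42 with siEfp and 9.02 with siControl, a difference of 0.40 or 1.32-fold higher. In Ishikawa cells PSMB1 had 10.00 with siEfp and 9.90 with siControl. Over the 9 beta ring genes the median difference was -0.07 in Ishikawa cells, with 6 genes lower, and 0.08 in HEC-1A cells, with 2 lower.

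PSMB10, the inducible catalytic subunit that replaces PSMB7 in the immunoproteasome, had the lowest difference of all 43 genes in Ishikawa cells. Its log2 signals there were 5.59 with siEfp and 6.14 with siControl, a difference of -0.55 or 1.46-fold lower. In HEC-1A cells they were 6.49 with siEfp and 6.44 with siControl. The lower value was therefore seen in the Ishikawa pair alone, and the signal was below the median of all genes. PSMB10 and the other genes at the ends of the range are shown with the promoters that follow, which are the 250 bases before the annotated start of each gene, taken from RefSeq (GRCh38.p14) and printed 5′ to 3′ on the strand of the gene. PSMD5 and PSMD10, chaperones of 19S assembly, were lower with siEfp in both lines, PSMB10 was lower in Ishikawa cells, and PSMA3 is shown as a gene that was higher in both. Capitals mark any match on either strand to 4 motifs. TGACNNNGC is the core of the antioxidant response element, the site bound by NFE2L1 with small MAF proteins, and its extended form TGACTCAGC lies within it. CCGGAAG is a site of ETS family factors and CCAAT that of NF-Y, which appears as ATTGG on the opposite strand.
PSMD5, chr9:120842923-120843172, minus strand: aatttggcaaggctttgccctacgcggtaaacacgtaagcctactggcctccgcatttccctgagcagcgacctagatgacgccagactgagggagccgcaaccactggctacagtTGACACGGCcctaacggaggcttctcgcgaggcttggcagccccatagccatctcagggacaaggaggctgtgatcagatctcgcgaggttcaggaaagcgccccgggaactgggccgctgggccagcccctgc
PSMD10, chrX:108091543-108091792, minus strand: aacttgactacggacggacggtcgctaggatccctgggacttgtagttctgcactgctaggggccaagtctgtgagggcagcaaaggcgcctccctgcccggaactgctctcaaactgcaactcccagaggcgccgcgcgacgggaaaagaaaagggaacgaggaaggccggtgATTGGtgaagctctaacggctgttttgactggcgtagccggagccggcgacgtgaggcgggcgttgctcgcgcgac
PSMB10, chr16:67936851-67937100, minus strand: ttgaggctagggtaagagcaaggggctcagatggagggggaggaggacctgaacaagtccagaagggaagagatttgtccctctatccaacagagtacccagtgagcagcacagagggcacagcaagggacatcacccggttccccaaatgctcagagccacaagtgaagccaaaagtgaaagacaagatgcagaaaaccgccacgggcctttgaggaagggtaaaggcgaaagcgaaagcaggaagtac
PSMA3, chr14:58244593-58244842, plus strand: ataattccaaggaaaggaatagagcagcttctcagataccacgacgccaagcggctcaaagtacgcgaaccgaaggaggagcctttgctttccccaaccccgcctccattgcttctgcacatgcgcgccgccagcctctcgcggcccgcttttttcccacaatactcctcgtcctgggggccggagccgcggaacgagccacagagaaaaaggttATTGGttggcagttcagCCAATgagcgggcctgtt
PSMD5 holds 1 TGACNNNGC match, 134 bases before the start, PSMD10 holds 1 CCAAT match 76 bases before it, and PSMA3 holds 2 CCAAT matches 35 and 18 bases before it. The PSMB10 window holds no match to the 4 motifs. PSMD5, PSMD10 and PSMB10 thus shared none of these motifs in the windows shown. Genes that were lower in both lines and genes that were higher in both held these motifs. Among the lower, PSME1 holds a TGACNNNGC match, as PSMD5 does, and PSMD8 holds a CCAAT match, as PSMD10 does. Among the higher, PSMD3 holds both a TGACNNNGC and a CCAAT match, PSME4 a TGACNNNGC match and PSMC3 a CCAAT match. The motifs thus did not separate the lower from the higher genes named here.

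**Figure D3:**
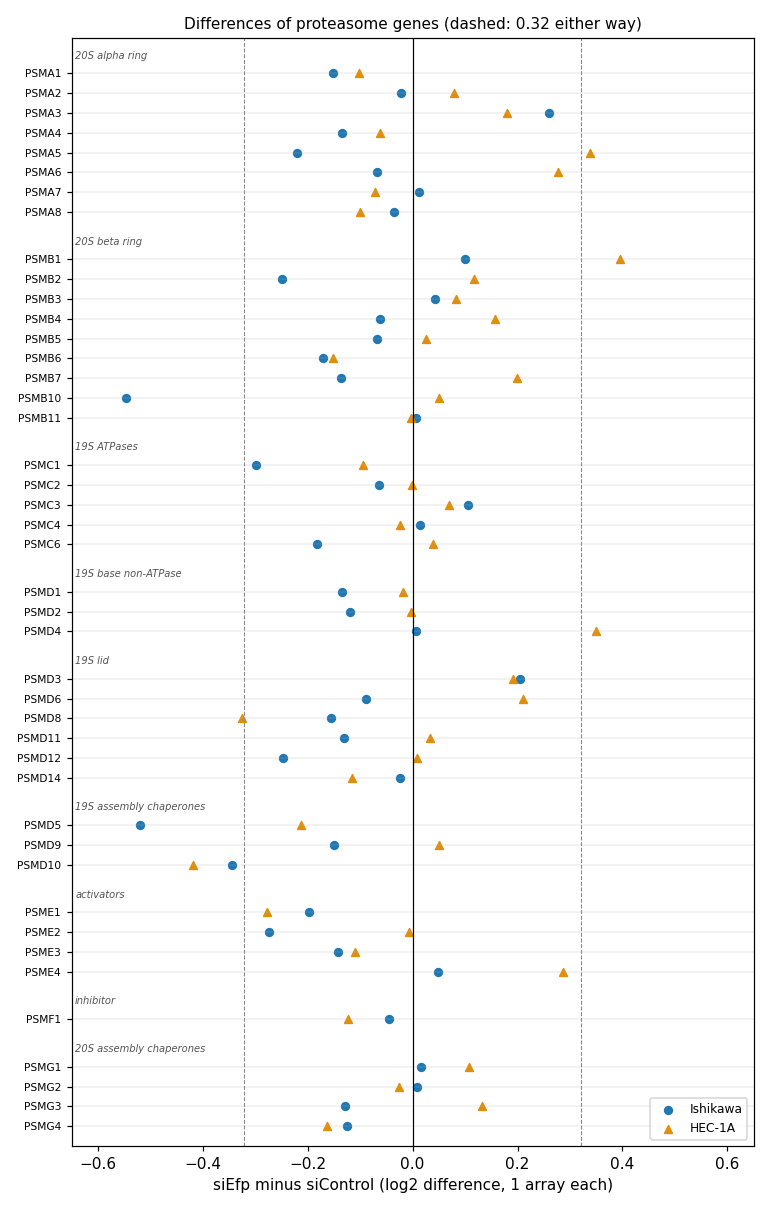
Difference siEfp minus siControl on the log2 scale for each of the 43 proteasome genes, 1 row per gene, grouped by role, with 1 symbol per line, a solid line at 0 and dashed lines at 0.32 either way. PSMB10 and PSMD5 lie furthest left for Ishikawa cells at -0.55 and -0.52, and PSMD10 lies at -0.34 and -0.42.

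The chaperones of 19S assembly had the lowest median difference of the role groups in both lines, -0.34 in Ishikawa cells and -0.21 in HEC-1A cells. PSMD5, PSMD9 and PSMD10 (gankyrin) each hold ATPases of the base until the regulator is complete. PSMD10, which is also known to bind RB1 and MDM2, had log2 signals of 10.73 with siEfp and 11.07 with siControl in Ishikawa cells, and 10.63 with siEfp and 11.05 with siControl in HEC-1A cells. Both siEfp arrays lay below both siControl arrays, with differences of -0.34 and -0.42, or 1.27-fold and 1.34-fold lower. PSMD10 was the only one of the 43 genes lower by at least 0.32 in both lines (2.33%), against 3.53% of all genes. PSMD5 had 9.32 with siEfp and 9.84 with siControl in Ishikawa cells, a difference of -0.52, and 9.60 with siEfp and 9.81 with siControl in HEC-1A cells, a difference of -0.21. For PSMD5, too, both siEfp arrays lay below both siControl arrays. The same held for PSMA1, PSMA4, PSMD8, PSME1, PSME3 and PSMA8, the last at the low end of the arrays. The share of all genes with such an order of arrays was not counted, so it cannot be said whether it was more common here. PSMD9 had differences of -0.15 and 0.05, so the chaperones did not share a direction in HEC-1A cells.

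Of the 8 genes of the 19S base, PSMD4 alone differed by at least 0.32, in HEC-1A cells. The 5 ATPases had a median difference of -0.06 in Ishikawa cells and of 0.00 in HEC-1A cells, where all lay within 0.10 of 0. PSMC1 was the furthest down of them in Ishikawa cells, with 10.68 with siEfp and 10.97 with siControl, and its HEC-1A signals were 10.45 with siEfp and 10.55 with siControl. PSMC1 and PSMC6 are represented by 2 probe sets each, whose differences within a line were at most 0.13 apart, and probes of genes with near-identical copies can bind those too. PSMC3 was slightly higher with siEfp in both lines, with 9.31 with siEfp and 9.20 with siControl in Ishikawa cells, and 8.85 with siEfp and 8.78 with siControl in HEC-1A cells. The large scaffold subunits PSMD1 and PSMD2 had differences of -0.13 and -0.12 in Ishikawa cells and of -0.02 and 0.00 in HEC-1A cells. PSMD4, a ubiquitin receptor of the base, had 6.99 with siEfp and 6.64 with siControl in HEC-1A cells, a difference of 0.35, and 6.53 with siEfp and 6.52 with siControl in Ishikawa cells. A difference of this size was therefore seen for PSMD4 in the HEC-1A pair alone.

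Of the 6 lid genes, 5 were lower with siEfp in Ishikawa cells and 2 in HEC-1A cells. PSMD14, the lid enzyme that cuts the ubiquitin chain off the substrate, had differences of -0.02 and -0.12. PSMD8 was lower in both lines, with 10.85 with siEfp and 11.01 with siControl in Ishikawa cells and 10.59 with siEfp and 10.91 with siControl in HEC-1A cells, where the difference was -0.33. PSMD3 was higher in both, with 10.17 with siEfp and 9.97 with siControl in Ishikawa cells, and 10.48 with siEfp and 10.29 with siControl in HEC-1A cells. Subunits that sit in 1 complex thus had differences of opposite sign. PSMD6, PSMD11 and PSMD12 had differences of -0.25 to -0.09 in Ishikawa cells and of 0.01 to 0.21 in HEC-1A cells.

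The activators bind the end of the 20S core in place of the 19S regulator. PSME1 and PSME2 form the interferon-inducible PA28 cap, PSME3 the nuclear PA28 gamma cap, and PSME4 is PA200. PSME1 was lower with siEfp in both lines, with 8.82 with siEfp and 9.02 with siControl in Ishikawa cells, and 8.99 with siEfp and 9.27 with siControl in HEC-1A cells. Its partner PSME2 had differences of -0.27 in Ishikawa cells and -0.01 in HEC-1A cells, and PSME3 of -0.14 and -0.11. PSME4 was higher with siEfp in HEC-1A cells, at 9.05 against 8.76 with siControl, and had 8.65 with siEfp and 8.60 with siControl in Ishikawa cells. PSMF1, known as PI31 and first described as an inhibitor of the 20S core, had differences of -0.05 and -0.12. Among the chaperones of 20S assembly, which pair as PSMG1 with PSMG2 and PSMG3 with PSMG4, the differences lay between -0.13 and 0.02 in Ishikawa cells and between -0.16 and 0.13 in HEC-1A cells.

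The lines were set side by side to see which differences recurred. Of the 43 genes, 17 were lower with siEfp in both lines (39.5%), against 26.7% of all genes, and 8 were higher in both (18.6%), against 31.1%. A further 14 were lower in Ishikawa and higher in HEC-1A cells (32.6%), against 20.9% of all genes, and 4 were the reverse (9.30%), against 21.0%. Opposite signs were thus about as common among the 43 genes, at 41.9%, as among all genes, at 41.8%. The differences of the lines correlated at r = 0.42 over the 43 genes and at 0.33 over all genes, given as a description of values that were normalized together. For 26 of the 43 genes the difference was within 0.2 of 0 in both lines (60.5%), against 40.3% of all genes.

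**Figure D4:**
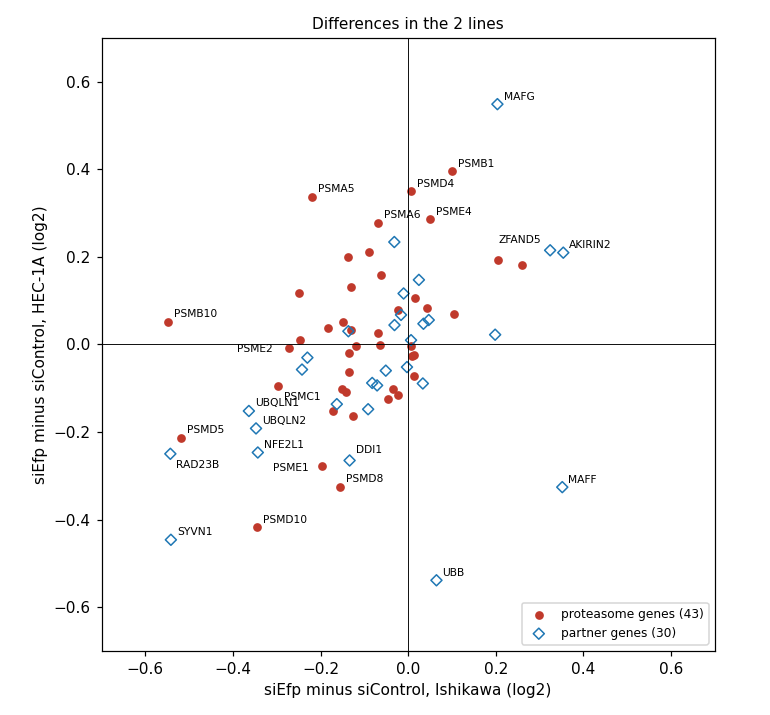
Difference siEfp minus siControl in HEC-1A cells (vertical, log2) against that in Ishikawa cells (horizontal, log2), 1 symbol per gene, for the 43 proteasome genes and 30 partner genes. PSMD10, PSMD5, SYVN1 and RAD23B lie at the lower left, PSMA5 at the upper left and MAFF at the lower right.

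The only replication of siEfp against siControl is across the lines, so a linear model (limma) with line as a block was fitted to all genes on the 4 arrays. It has 1 residual degree of freedom and treats the lines as replicates of 1 effect. It called 0 of the 43 proteasome genes at an adjusted p under 0.05, against 0.163% of all genes (29 lower and 1 higher, TRIM25 among the lower at adjusted p = 0.0342 in limma). At an unadjusted p under 0.05 it had 2 of the 43 (4.65%), against 2205 of all genes (12.0%). These were PSMD10, with a limma estimate of -0.38 (SE 0.12, adjusted p = 0.30), and PSMD5, with -0.37 (SE 0.13, adjusted p = 0.363 in limma). The SE of the 43 estimates was 0.12 to 0.17, and for 27 of the 43 it was larger than the estimate itself.

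Genes that act with the proteasome were examined as lists, chosen for their roles but with earlier results of these data known. Of 36 listed genes, 30 were measured. The limma model called 0 of the 30 for siEfp at an adjusted p under 0.05 and 4 at an unadjusted p under 0.05, namely RAD23B, NFE2L1, SYVN1 and MAFG. This is 13.3% of the 30, near the 12.0% of all genes, so the values that follow are a description. Among 12 partners of the particle the median difference was -0.01 in Ishikawa cells and 0.05 in HEC-1A cells. AKIRIN2, which brings proteasomes into the nucleus, was higher with siEfp in both lines, with 9.64 with siEfp and 9.28 with siControl in Ishikawa cells and 10.05 with siEfp and 9.84 with siControl in HEC-1A cells. ZFAND5, a stimulator of the particle, was also higher in both, with differences of 0.32 and 0.21. UCHL5, a deubiquitinase of the 19S base, had -0.24 and -0.06, and the 19S chaperone PAAF1 had -0.03 and 0.23. POMP, which matures the 20S core, had 0.00 and -0.05. The 3 genes of ubiquitin supply were UBB, with 0.06 and -0.54, UBA6, with -0.23 and -0.03, and UBA1, with 0.01 and 0.01.

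Of 8 shuttle and segregase genes, whose products bring ubiquitinated proteins to the proteasome, 5 were lower with siEfp in both lines, against 26.7% of all genes. Only 1 was higher in both, against 31.1%. The 5 include DDI1, at -0.13 and -0.27, whose log2 signals of 3.05 to 3.45 were near the low end. RAD23B, a shuttle with ubiquitin-binding domains, had 8.80 with siEfp and 9.34 with siControl in Ishikawa cells, and 9.03 with siEfp and 9.28 with siControl in HEC-1A cells. UBQLN1, another shuttle, had differences of -0.36 and -0.15. VCP, the segregase that pulls ubiquitinated proteins out of complexes, had 0.02 and 0.15. Of the 43 proteasome genes, only PSMB10 had a lower difference than RAD23B in Ishikawa cells.

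Among 7 genes that regulate proteasome genes, 4 were lower with siEfp in both lines, against 26.7% of all genes. Another 2 were higher in both, against 31.1% of all genes, namely MAFG and NGLY1, the latter at 0.20 and 0.02. The 4 lower genes were NFE2L1, SYVN1, NFE2L2, at -0.07 and -0.09, and BACH1, at -0.16 and -0.14. NFE2L1, the factor named above, had 9.81 with siEfp and 10.15 with siControl in Ishikawa cells, and 9.94 with siEfp and 10.19 with siControl in HEC-1A cells. SYVN1 (HRD1), the endoplasmic reticulum ligase that keeps NFE2L1 low, had 7.97 with siEfp and 8.51 with siControl in Ishikawa cells, and 8.29 with siEfp and 8.74 with siControl in HEC-1A cells. The limma estimates were -0.30 for NFE2L1 (SE 0.12, adjusted p = 0.411) and -0.49 for SYVN1 (SE 0.12, adjusted p = 0.198). The small MAF gene MAFG was higher with siEfp in both, with differences of 0.20 and 0.55, while MAFF, another of them, had 0.35 in Ishikawa cells and -0.33 in HEC-1A cells.

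The 250 bases before the start were available for 37 of the 43 genes, as 44 promoters, since some genes have several starts. TGACNNNGC was present in 11 of the 44 (25%), against 10.9% of 35116 promoters of all genes, and CCGGAAG in 10 (22.7%), against 8.52%. CCAAT was present in 16 (36.4%), against 32.0%, and TGACTCAGC in 0, against 0.456%. The genes with a TGACNNNGC match had a median difference of -0.13 in Ishikawa cells, against -0.10 for the genes without, and 0.01 against 0.00 in HEC-1A cells. The values with and without this match were thus close together. For CCAAT the medians were -0.04 with and -0.13 without a match in Ishikawa cells, and 0.05 and -0.01 in HEC-1A cells. The genes with CCAAT were thus less lowered in Ishikawa cells, which was not tested. A match of letters is not a bound site.

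The lines differed in 11 of the 43 genes. The same model compares the HEC-1A arrays with the Ishikawa arrays and treats the arrays of a line as replicates. By it 8 of 43 genes (18.6%) were lower in HEC-1A cells at an adjusted p under 0.05, against 17.0% of all genes, and 3 (6.98%) were higher, against 18.3%. The other 32 genes did not pass the test. For 37 of the 43 genes the difference had the same sign in siEfp-treated and in siControl-treated cells (86.0%), against 75.4% of all genes. None of these shares was tested against that of all genes.

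PSMB5, the chymotrypsin-like catalytic subunit, showed the largest difference of the 43 genes. Its log2 signals were 9.09 with siEfp and 9.07 with siControl in HEC-1A cells, and 10.38 with siEfp and 10.45 with siControl in Ishikawa cells, so that the lines did not overlap. The difference, HEC-1A minus Ishikawa, was -1.34 (SE 0.12), or 2.53-fold lower in HEC-1A cells, at adjusted p = 0.000326 in limma. The difference was -0.73 (SE 0.13) for PSMB1, -0.60 (SE 0.12) for PSMA3 and -0.48 (SE 0.12) for PSMC4, an ATPase, and all 3 passed. PSMA6, PSMC3, PSMD14 and PSMB6 also passed, with differences of -0.45 to -0.41. Of the constitutive catalytic subunits PSMB5 and PSMB6 were thus lower in HEC-1A cells, while PSMB7 was at 0.31 (SE 0.14) with an adjusted p of 0.137 in limma.

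The genes that were higher in HEC-1A cells were PSMG2 and PSMG4, chaperones of 20S assembly, and PSMB10. PSMG2 had 11.14 with siEfp and 11.17 with siControl in HEC-1A cells, and 10.55 with siEfp and 10.54 with siControl in Ishikawa cells, a difference of 0.60 (SE 0.12, adjusted p = 0.00873 in limma). PSMG4 had 5.65 with siEfp and 5.81 with siControl in HEC-1A cells, and 5.10 with siEfp and 5.22 with siControl in Ishikawa cells, a difference of 0.57 (SE 0.12, adjusted p = 0.0111 in limma). Their pairing partners PSMG1 and PSMG3 had differences of 0.09 and 0.02, so that only 1 gene of each pair passed the test. For PSMB10 the difference of 0.60 (SE 0.17, adjusted p = 0.0329 in limma) was uneven, at 0.90 between the siEfp arrays and 0.30 between the siControl arrays. Without treatment as a term, the calls of PSMA6, PSMB10 and PSMB6 were lost, at adjusted p = 0.0653, 0.0717 and 0.0718 in limma. Outside the proteasome, UBB, a polyubiquitin gene, had 6.55 with siEfp and 7.08 with siControl in HEC-1A cells, and 11.96 with siEfp and 11.89 with siControl in Ishikawa cells, a difference of -5.11 (SE 0.17, adjusted p = 6.86e-06 in limma). The ubiquitin receptor ADRM1 and the ubiquitin-activating enzyme UBA1 were higher in HEC-1A cells, by 0.68 and 0.61.

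**Figure D5:**
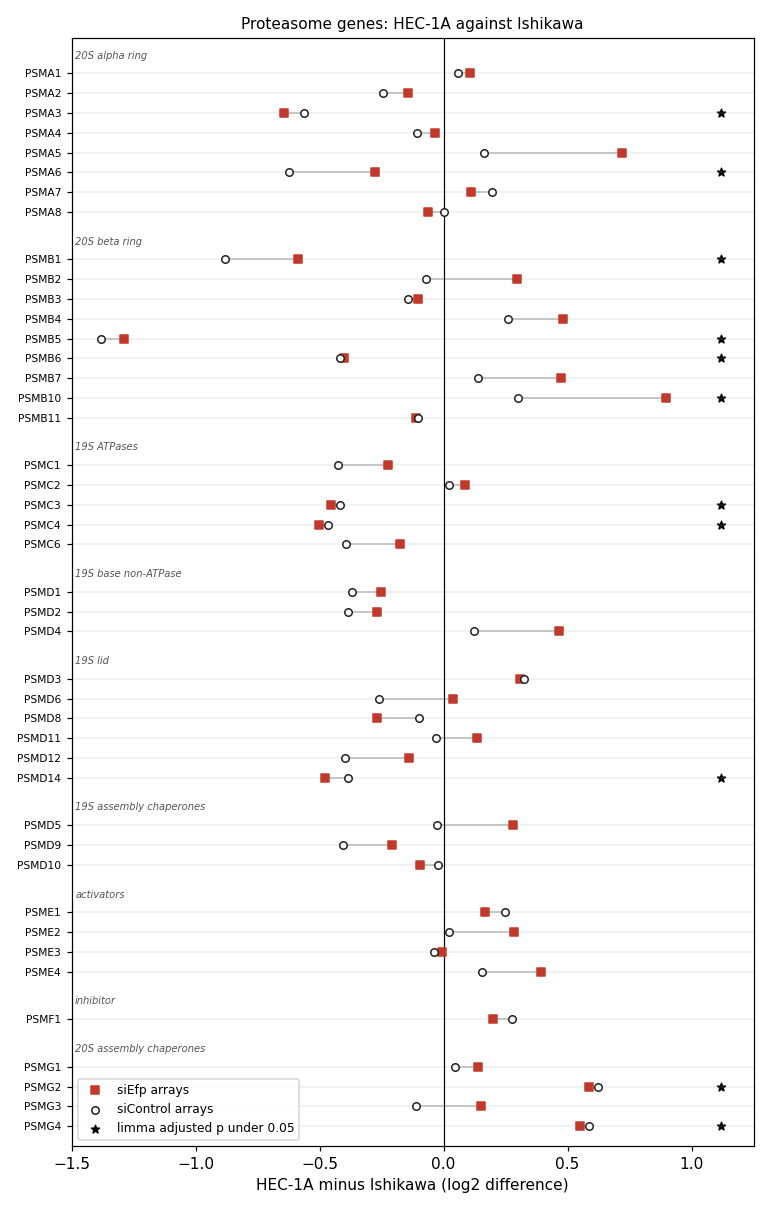
Difference HEC-1A minus Ishikawa on the log2 scale for the 43 proteasome genes, grouped by role, with a square for the siEfp arrays, a circle for the siControl arrays and a star for the 11 genes that passed the limma test. PSMB5 stands apart at the low end at -1.29 and -1.38, and PSMB10 has its symbols far apart at 0.90 and 0.30.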

How the data were processed

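RNA of siEfp and siControl cells of both lines (150 ng per the labels) was labelled with biotin and hybridised to 4 arrays, 1 per group. The values that the authors deposited are log2 signals, 1 per probe set, for which the submitters' processing notes name Affymetrix Expression Console and RMA. RMA subtracts background and gives the probe values of all arrays the same distribution, which removes any shift shared by all genes. It also compresses differences of dim probe sets. The deposited probe set signals were close in distribution but not identical, with medians of 5.63 to 5.69 on the 4 arrays. Neither versions nor the genome build is given in the sources used here, and the array named in the methods differs from the one that the probe set numbers belong to. The number of arrays limits the precision.

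Of 33297 probe sets, the 19460 with 1 gene symbol were used and averaged per gene, which gave 18417 genes. A total of 1754 probe sets had several symbols and 12083 had none, and 19429 of those used had a gene ID in RefSeq, with 0 symbols changed. Differences were taken within a line and counted from 0.32 on the log2 scale and from 2-fold. limma 3.58.1 in R 4.3.3 was fitted to all genes with treatment and line as terms, with Benjamini-Hochberg adjustment at 0.05, and was tested on simulated data. Python 3.11.15, numpy 2.4.6, pandas 2.3.3 and matplotlib 3.10.9 were used for the rest. No coordinates of probe sets were used, and promoters came from RefSeq (GRCh38.p14).

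The genes and lists were chosen with earlier results of these data known. Genes named with their signals are the 4 with the lowest and the 4 with the highest difference per line, the 4 that differed furthest the same way in both lines each way, the catalytic subunits with PSMB10, the 4 at each end of the difference between lines, and up to 2 partners at each end of a list in each line. Other genes are named for their role alone. Alternatives were centring on the median, a second quantile normalization, the brightest probe set of a gene, only the brighter genes, a threshold of 1.5-fold and the mean in place of the median. For limma they were a fit with no block, one with an intensity trend, and a threshold of 0.1 on the adjusted p.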

Additional observations from a re-analysis of the deposited data

Results flagged for a closer look

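Of 73 proteasome and partner genes, 26 had differences of opposite sign in the 2 lines (35.6%), against 41.8% of all genes. Of these, 2 had a size of at least 0.2 in both lines (2.74% of the 73), against 5.24% of all genes. PSMA5, a subunit of the 20S alpha ring, had siEfp minus siControl differences of -0.22 in Ishikawa cells and 0.34 in HEC-1A cells. MAFF, a small MAF protein, had 0.35 in Ishikawa cells and -0.33 in HEC-1A cells. The difference between the lines was not tested, since 1 array per condition leaves no residual degrees of freedom for an interaction.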

How the results depend on the processing

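Most values kept their direction and their side of the threshold. At 1.5-fold, the proteasome genes lower with siEfp numbered 0 in Ishikawa cells (3 from 0.32) and 0 in HEC-1A cells (2 from 0.32), and those higher in HEC-1A cells numbered 0 (3 from 0.32). After a second quantile normalization 1 proteasome gene was lower by at least 0.32 in HEC-1A cells. The shares of all genes at 1.5-fold and after this normalization were not counted. The HEC-1A median of 0.01 changed sign on centring, to -0.0011, and both values are near 0. The limma model called 30 of all genes for siEfp, 0 with no block, 182 with an intensity trend, 615 with brighter genes only, 0 after a second quantile normalization and 85 at an adjusted p under 0.1. No proteasome gene was among the calls of any of these fits, and their lowest adjusted p lay between 0.0932 and 1. Between the lines it called 11 proteasome genes, 18 with an intensity trend and 17 at an adjusted p under 0.1. The counts over all genes beside these were 6486, 6848 and 7743. With brighter genes only it called 15 of 39 proteasome genes, against 5317 of all 9209 genes in that fit. Of the 15, 9 were among the 11, and the other 2 of the 11, PSMB10 and PSMG4, were too dim to enter. With no block 8 proteasome genes were called, against 5156 of all genes. These 8 were all among the 11, and PSMA6, PSMB10 and PSMB6 were lost. Leaving out an array was not run, because each group has 1 and the model then has no residual degrees of freedom. Line served as the pairing of siEfp with siControl arrays in the model, since the labels carry no replicate numbers, and the fit with no block is the unpaired one. Array values have no counts, so dim genes such as PSMA8 and PSMB11 are limited by signal over background. The siEfp calls rest on the assumption that the lines are replicates.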
